A study of Homo sapiens with 2 samples.

Results

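The genes that make, carry and read retinoic acid were described in 769-P cells with and without added FOXK2, a forkhead transcription factor. The set held 9 genes of the 22411 that could be named on the array, each measured by 1 transcript cluster, the array's unit for a gene. They were taken by gene symbol: RDH10, DHRS3, ALDH1A1, ALDH1A2, ALDH1A3, CRABP2, RARA, RARB and RARG. The set was chosen with the differences between these same 2 arrays known, ALDH1A3 being among the lowest genes there, and its members were then picked by symbol. The differences of the set are therefore given as a description.

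769-P is an established line of human clear-cell renal cell carcinoma, from a tumour labelled as non-metastatic. The study measured total RNA on 2 Affymetrix whole-transcript arrays. The control array held RNA of cells given the empty plv-EGFP lentiviral vector, and the other array held RNA of cells given pLV-EGFP-FOXK2, which carries the full coding sequence of FOXK2. Both vectors share the EGFP and puromycin-resistance backbone, so both groups carried a lentiviral vector. Whether the cells were a pool or 1 clone, and how long after infection they were harvested, is not given in the sources used here. Since each group had a single array, no error could be estimated and nothing was tested. Every difference given is 1 measurement, the log2 value of the FOXK2 array less that of the empty vector array, so that negative differences are lower with FOXK2.

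Retinoic acid is made from vitamin A inside cells in a pair of oxidations. RDH10 turns retinol into retinal, DHRS3 reduces retinal back to retinol, and the retinal dehydrogenases ALDH1A1, ALDH1A2 and ALDH1A3 oxidise retinal irreversibly to retinoic acid. CRABP2 carries the product to the nucleus, where the receptors RARA, RARB and RARG, paired with RXR proteins, bind repeated half-sites in DNA and switch transcription of their targets according to the ligand. In the developing mouse kidney, retinoic acid made in the stroma maintains Ret in the ureteric bud and so its branching.

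The promoter windows of ALDH1A3, the gene with the largest difference of the set, and of RARB, the textbook target of its own receptor family, are printed here. Both are RefSeq sequences of GRCh38.p14, on the + strand, from 250 bases before the start of transcription to 50 bases after it. ALDH1A3 lies at chr15:100879581-100879880, with matches to the GC box GGGCGG on either strand in capitals. RARB lies at chr3:25428013-25428312, 1 of 4 windows listed for that gene, with a direct repeat of 2 retinoid half-sites and the 5 bases between them in capitals.
ALDH1A3: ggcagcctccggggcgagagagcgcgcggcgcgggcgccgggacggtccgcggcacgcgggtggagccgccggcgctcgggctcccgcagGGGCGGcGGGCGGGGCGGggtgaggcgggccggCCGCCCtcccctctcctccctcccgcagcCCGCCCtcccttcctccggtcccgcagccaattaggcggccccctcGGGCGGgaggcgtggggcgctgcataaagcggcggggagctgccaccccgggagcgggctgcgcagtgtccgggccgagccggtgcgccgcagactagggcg
RARB: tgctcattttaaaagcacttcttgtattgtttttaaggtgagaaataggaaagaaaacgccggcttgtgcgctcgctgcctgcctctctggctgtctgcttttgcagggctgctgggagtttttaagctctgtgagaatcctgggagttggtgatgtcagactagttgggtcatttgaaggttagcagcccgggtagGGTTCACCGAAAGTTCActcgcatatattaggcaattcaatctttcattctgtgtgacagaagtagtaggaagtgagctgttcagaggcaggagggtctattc
The ALDH1A3 window was 81.7% G and C, against a median of 58.7% over all 35116 windows, and held 6 GC boxes, an adjacent pair of which overlaps. A GC box was present in 45% of all windows. The RARB repeat lay between 53 and 37 bases before the start of transcription. It was found by a search on both strands for any of 4 half-sites, then any 5 bases, then any of the same half-sites. The first half-site searched was AGGTCA, the second was the related AGTTCA, the third was written as GGGTCA and the last was GGTTCA. Such a repeat was present in 31 windows, 0.0883% of all, and RARB was the only gene of the set with one. Windows were matched for 8 of the 9 genes, all but RDH10, 16 windows in all. The same half-sites spaced by 2 bases, present in 0.0399% of all windows, and the forkhead core GTAAACA, present in 3.42%, were in none of the 16. These matches describe letters in a window and show no binding, and no binding was measured in this study.

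FOXK2 itself checked the labels: its log2 value was 9.36 with empty vector and 13.82 with the FOXK2 vector. The difference of 4.46, or 22.0-fold, was in the direction the labels give. The kidney epithelial origin was checked with 12 marker genes, of which 10 were measured and all 10 lay above the level limit, a log2 value of 5.24 that is the median over the transcript clusters named by a single gene. LRP2 and CUBN, the endocytic receptors of the proximal tubule, stood at 13.15 and 9.41 with empty vector and at 16.20 and 12.84 with FOXK2. NNMT, nicotinamide N-methyltransferase, went from 5.73 to 7.44. ANPEP, a brush border peptidase, had values of 14.62 and 15.52, and KRT18, an epithelial keratin, 13.07 and 12.71. PAX8, a kidney lineage factor named after its values were seen, had values of 10.96 and 10.80. None of 11 measured markers of other cell types (leukocyte, endothelial, fibroblast, muscle, podocyte and collecting duct) lay above the level limit. Their values ran from 3.35 to 4.89 with empty vector and from 3.14 to 4.98 with FOXK2.

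Of the 9 retinoic acid genes, 5 lay above the level limit: RDH10, DHRS3, ALDH1A1, ALDH1A3 and RARA. Only ALDH1A3 among these 5 differed by 2-fold or more, and it was lower with FOXK2. Over all 11263 genes above the level limit, 3.05% were at least 2-fold lower and 2.13% at least 2-fold higher, and since the set was chosen with its values known nothing is read from its share. 4 of the 5 had negative differences, as had 55.6% of all genes above the limit. The median difference of the 5 was -0.38, beside -0.050 over all genes above the limit. It was -0.15 once the median of a window of 51 genes along the chromosome was subtracted from each gene. Over all 9 genes it was -0.15, beside 0.020 over all 22411 genes.

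**Figure D1:**
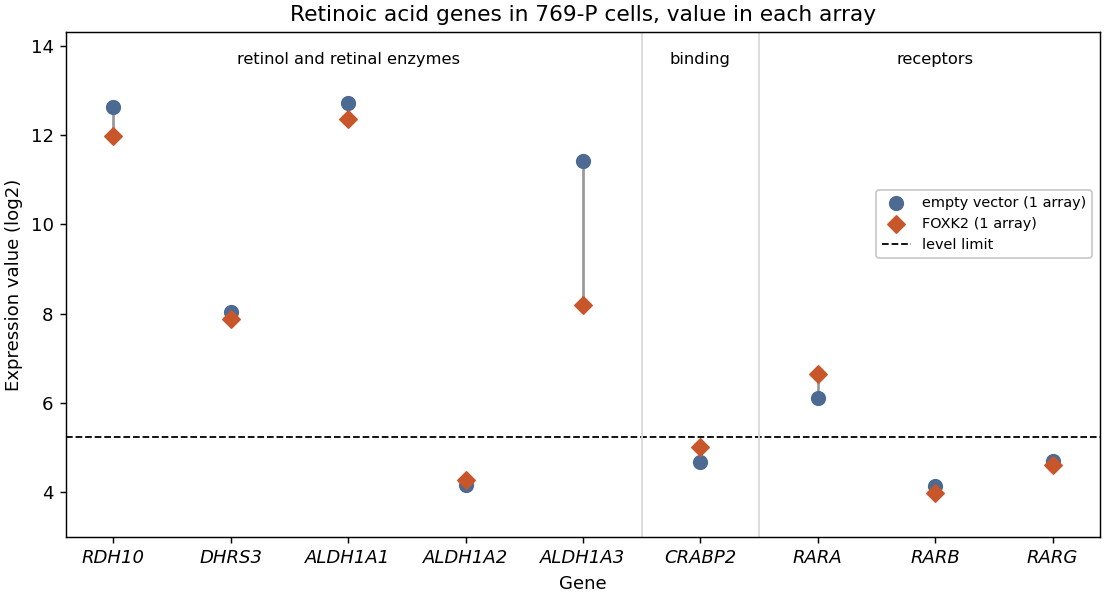
Expression value (log2) of each retinoic acid gene in the empty vector array (circles) and the FOXK2 array (diamonds), 1 array each, with no error bars because there are no replicates. The dashed line is the level limit of 5.24. ALDH1A3 drops from 11.42 to 8.18, and ALDH1A2, CRABP2, RARB and RARG lie under the line in both arrays.

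Among the enzymes between retinol and retinal, RDH10, which makes retinal, had a log2 value of 12.63 with empty vector and 11.98 with FOXK2. It was lower with FOXK2 by a difference of -0.64, or 1.56-fold, short of 2-fold. Of all genes above the level limit, 13.8% differed by as much or more in either direction. DHRS3, the retinal reductase that works against RDH10 and is known as a gene induced by retinoic acid, had values of 8.03 and 7.87. Its difference of -0.16 was smaller than that of 64.9% of all genes above the limit.

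The retinal dehydrogenases, which share 1 reaction, had unequal differences in these arrays. Probe sequences were not used here, so whether probes of these related genes also bind each other's RNA was not tested. ALDH1A3 had a log2 value of 11.42 with empty vector and 8.18 with FOXK2, a difference of -3.24, or 9.48-fold lower. It ranked 6 from the lowest among the 11263 genes above the level limit, and 0.160% of them differed by as much in size. Its value with FOXK2 remained above the level limit. ALDH1A1, the family member known for activity in many adult tissues, had values of 12.73 and 12.35. Its difference of -0.38, or 1.30-fold lower, was matched or passed in size by 32.4% of all genes above the limit. ALDH1A2, the main retinoic acid source of the vertebrate embryo, had values of 4.16 and 4.28, below the level limit in both arrays and within the range of the markers of other cell types. Its difference was 0.11. No probe background was analysed here, and whether a gene below the limit was expressed is therefore not known.

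CRABP2, the carrier that hands retinoic acid to its receptors, had log2 values of 4.68 with empty vector and 5.01 with FOXK2. The difference was 0.33, and both values lay below the level limit. The higher of them was just above the highest value of a marker of another cell type, 4.98. Among the receptors, RARA, the form found in most tissues, had values of 6.11 and 6.64. It was higher with FOXK2 by 0.52, or 1.44-fold, and 19.8% of all genes above the limit differed by as much in size. RARB, whose window with the repeated half-sites is printed above, had values of 4.13 and 3.98, a difference of -0.15. RARG, a receptor form known from skin, had values of 4.69 and 4.61, a difference of -0.083. Both lay below the level limit in both arrays and within the range of the markers of other cell types.

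The genes whose difference was nearest to that of ALDH1A3 were found among the protein-coding genes above the level limit, by the gap between the differences over these 2 arrays. MT2A, a metallothionein, came first, with log2 values of 12.13 and 8.99 and a difference of -3.14, a gap of 0.11. ATRNL1 followed, with a difference of -2.96, and then CAVIN2, a caveolar coat protein, with -2.94. The likeness rests on 1 difference per gene.

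Several of the 9 genes lie on chromosomes whose genes were lower as a whole with FOXK2. On chromosome 15, which carries ALDH1A2 and ALDH1A3, the median difference over 397 genes above the level limit was -0.30 and 77.1% were negative. On chromosome 9, which carries ALDH1A1, the median over 481 genes was -0.26 and 76.7% were negative. On chromosome 8, with RDH10, the median was -0.15 over 401 genes, and on chromosome 17, with RARA, it was -0.017 over 646. The median of a window of 51 genes above the limit was therefore subtracted from each gene, with the gene order of GRCh38.p14. The window counted the gene itself where it was above the limit, and was shifted inwards at chromosome ends. ALDH1A3 then stood at -2.93, RDH10 at -0.55, ALDH1A1 at -0.098, DHRS3 at -0.15 and RARA at 0.55. The neighbourhood median was -0.28 for ALDH1A1 and -0.32 for ALDH1A3, beside differences of -0.38 and -3.24. The part of these chromosome-wide shifts in each result was not otherwise tested.

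The closest neighbours were then compared gene by gene. Those named were taken for their place beside a gene of the set, except GDA and IGF1R, and all were named after their values were seen. The 10 nearest genes above the limit around ALDH1A3, 5 on each side, had differences between -0.68 and 0.050 with a median of -0.30, and none was 2-fold lower. The adjoining ASB7 and LRRK1, each next to it in that order, stood at -0.28 and -0.21. IGF1R, further from ALDH1A3 than those 10, stood at -1.94. Around ALDH1A1 the median of the 10 nearest genes was also -0.30. Of them, 3 were at least 2-fold lower while ALDH1A1 was not. These included GDA, guanine deaminase, with log2 values of 8.83 and 4.63 and a difference of -4.20, and ANXA1, annexin A1, next to ALDH1A1, with values of 13.33 and 11.37 and a difference of -1.96. ZFAND5, next to ALDH1A1 on the other side, stood at -0.28. RDH10 stood at -0.64 between RPL7 at -0.51 and STAU2 at -0.49, and its 10 nearest genes ranged from -0.51 to 0.35. The neighbours of RARA ranged from -0.52 to 1.21 and those of DHRS3 from -0.51 to 0.92, so both genes lay within the range of their neighbours.

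**Figure D2:**
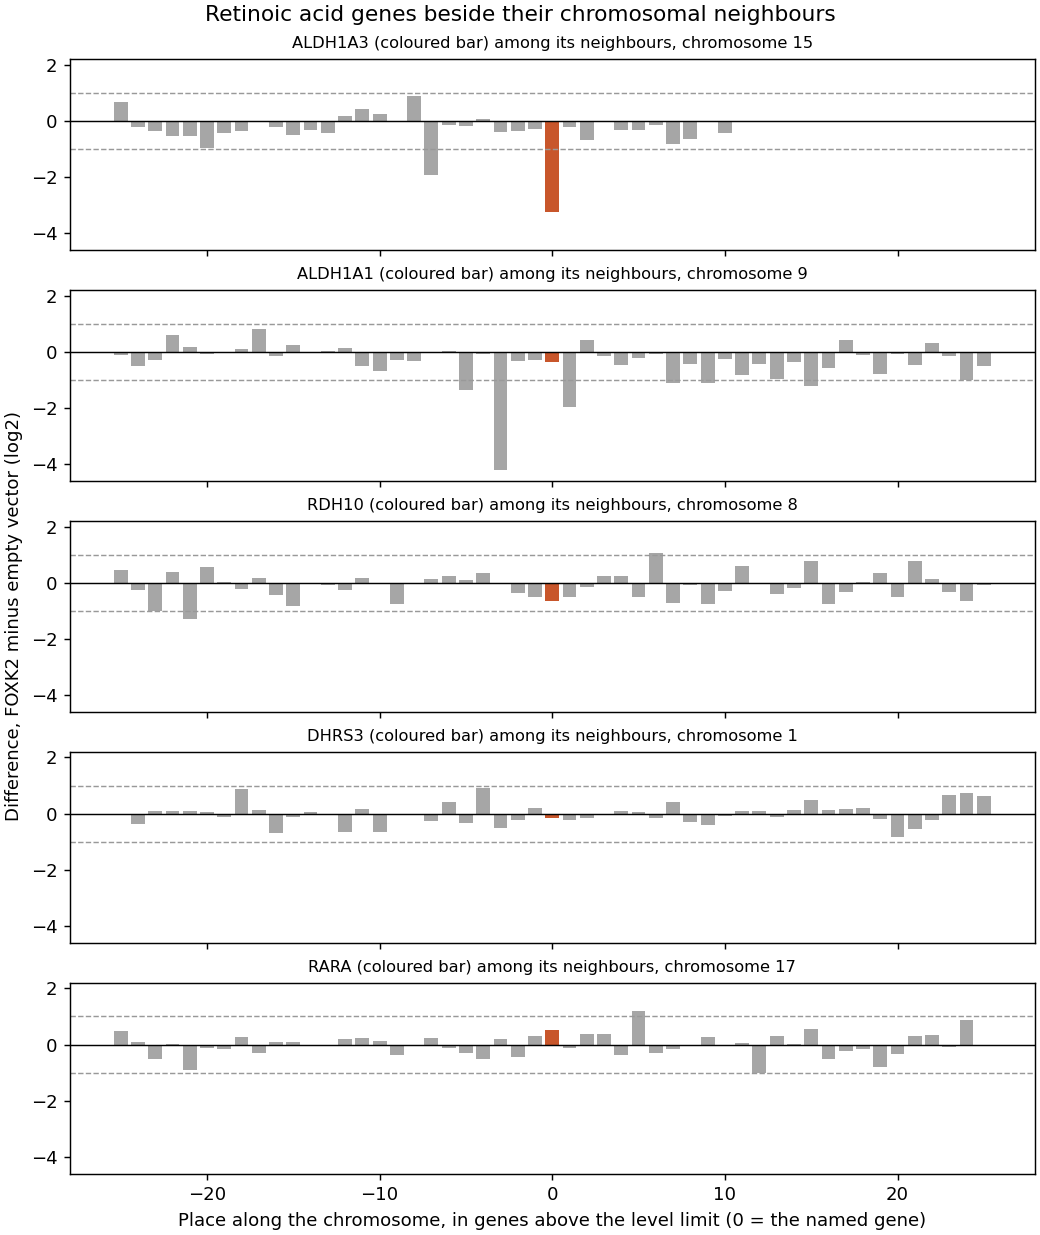
Difference (log2, FOXK2 minus empty vector) of each retinoic acid gene above the level limit (coloured bar at place 0) and of up to 25 genes above the limit on each side (grey bars), in chromosome order. The horizontal dashed lines mark 2-fold. The ALDH1A3 bar at -3.24 stands far below its 10 nearest genes. ALDH1A1 at -0.38 lies between ZFAND5 at -0.28 and the lower ANXA1 at -1.96. GDA at -4.20 is also among the 10 nearest genes of ALDH1A1.

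The rest of the retinoid pathway was described in 5 further lists with 98 genes, of which 81 were measured and 39 lay above the level limit. The other 17 were not analysed here. Above the limit, 2 of the 39 (RBP5 and ALDH8A1) passed 2-fold upwards with FOXK2 and 0 downwards, beside the 2.13% and 3.05% of all genes. These lists too were chosen with earlier results of these data known, so nothing is read from their shares. 22 of the 39 had negative differences and 17 positive ones, and their median was -0.12.

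Of the genes of retinol uptake and storage, 17 were measured and 5 lay above the limit. RBP5, a cellular retinol-binding protein of kidney and liver, had log2 values of 9.11 with empty vector and 11.45 with FOXK2, a difference of 2.34, or 5.05-fold higher. PNPLA4, a lipase that can act on retinyl esters, had values of 8.01 and 7.40, a difference of -0.61. Thus the carrier of retinol was higher in the array in which ALDH1A3 was lower. STRA6, the membrane receptor for circulating retinol, and LRAT, which esterifies retinol for storage, lay below the limit in both arrays, with differences of -0.022 and -0.044; both were named after their values were seen.

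Of the other dehydrogenases and reductases of retinol and retinal, 20 were measured and 10 lay above the limit. ALDH8A1, an aldehyde dehydrogenase that can oxidise retinal and also acts in tryptophan breakdown, had log2 values of 8.94 and 12.72, a difference of 3.77, or 13.7-fold higher. It thus moved opposite to ALDH1A3. RDH5, a retinol dehydrogenase known from the visual cycle, had values of 6.93 and 7.88, and its difference of 0.96 was just short of 2-fold. The aldo-keto reductases AKR1C3 and AKR1B10, which can reduce retinal to retinol, had values of 13.46 and 12.54 and of 12.20 and 11.32. Their differences of -0.92 and -0.88 were also short of 2-fold, and they were named after their values were seen.

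Of the genes of retinoic acid breakdown and transport, 8 were measured, 3 lay above the limit and none reached 2-fold. FABP5, a fatty acid-binding protein that can carry retinoic acid to PPARD, had log2 values of 6.31 and 5.56, a difference of -0.75. CYP3A5, a cytochrome P450 of broad substrate range, had values of 11.69 and 11.10, a difference of -0.59. CYP26A1, the retinoic acid hydroxylase whose gene is a direct target of the receptors, lay below the limit at 3.90 and 3.97 and was named after its values were seen. Its difference was 0.067.

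Of the RXR partners and coregulators, 15 were measured, 12 lay above the limit and none reached 2-fold. TRIM24, a coregulator that binds RARA, had log2 values of 9.07 and 8.52, a difference of -0.55. THRAP3, a coactivator that also acts in splicing, had values of 12.02 and 11.54, a difference of -0.48. RXRA, a dimer partner of the receptors named after its values were seen, had values of 5.87 and 5.69, a difference of -0.18.

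Of the genes known to respond to retinoic acid in other cells, 21 were measured, 9 lay above the limit and none reached 2-fold. RARRES2, which encodes the secreted protein chemerin, had log2 values of 6.51 and 5.84, a difference of -0.68. BHLHE40, a transcription factor that also responds to low oxygen and to the circadian clock, had values of 11.06 and 11.69, a difference of 0.63. TGM2, tissue transglutaminase, named after its values were seen, had values of 8.40 and 7.93, a difference of -0.47. Of these 9 genes, 5 had negative and 4 positive differences, with a median of -0.10. Retinoic acid itself was not measured in this study, and the serum in the medium, shared by both groups, is a known source of retinol.

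**Figure D3:**
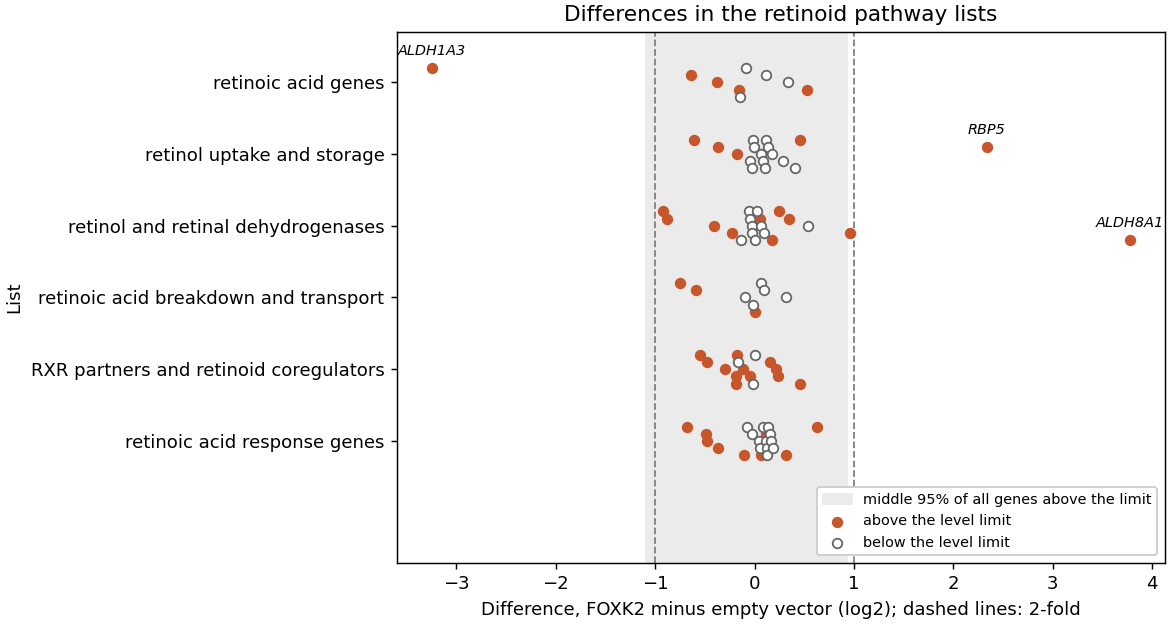
Difference (log2, FOXK2 minus empty vector) of every measured gene of the set and of the 5 wider retinoid lists, 1 point per gene, filled above the level limit and open below it. Dashed lines mark 2-fold and the grey band holds the middle 95% of all genes above the limit, from -1.09 to 0.93. ALDH1A3, RBP5 and ALDH8A1 are the 3 points past 2-fold.

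The scaling of the arrays changed little in the set. Centring each array on its median moved the median of all genes above the limit from -0.050 to -0.12, and ALDH1A3 stood at -3.31 on that scale, which is -3.19 relative to that median. After quantile normalization it stood at -3.20 and after removal of a trend on level likewise at -3.20. The sign of each of the 9 differences was the same under these 3 scalings and after subtraction of the running median.

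**Figure D4:**
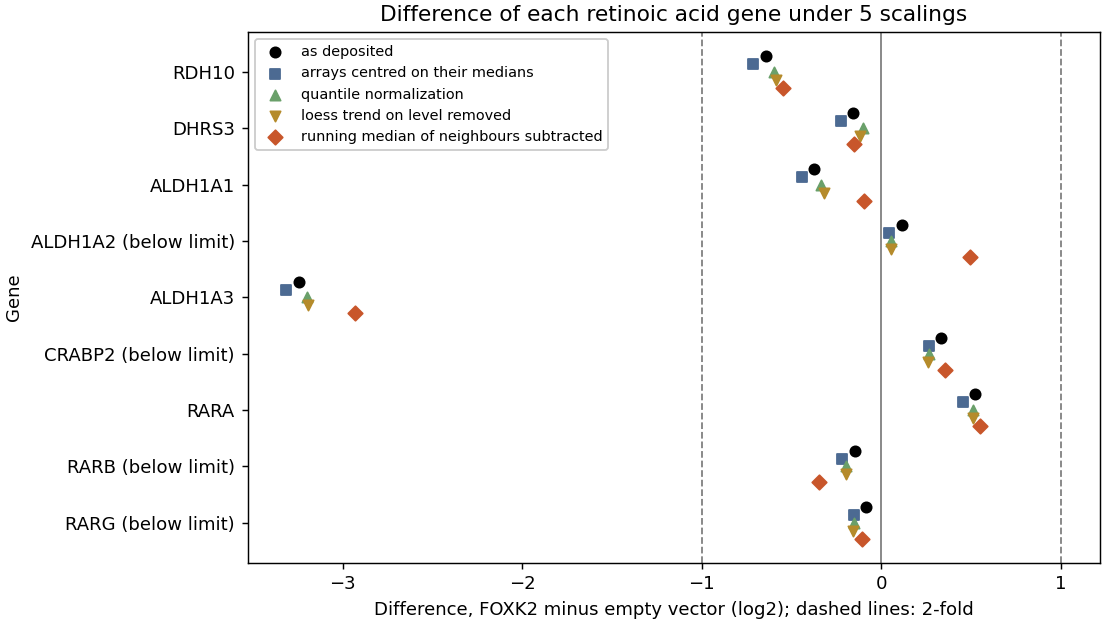
Difference (log2, FOXK2 minus empty vector) of each retinoic acid gene as deposited and under 4 other scalings, 1 point per scaling. ALDH1A3 lies between -3.31 and -2.93 in all of them, and the other 8 genes stay inside the dashed lines at 2-fold.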

How the data were processed

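The authors deposited a table with a log2 expression value for each of 67528 transcript clusters in each array. That the scale is log2 was inferred from the range, 2.13 to 19.93. Affymetrix Expression Console produced them, per the submitters' processing notes; algorithm, version and build were not given in the sources used here. Depth does not apply to arrays, and their number, 1 per group, limits the precision.

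Transcript clusters with 1 gene symbol (23781; 1543 had several and 42204 none) were named through the platform annotation, with symbols updated through RefSeq of GRCh38.p14, and averaged per gene. Counts took in genes whose mean of the 2 arrays reached the level limit, and calls were made at 2-fold. The members and lists were chosen with earlier results of these data known. Named genes were all members, FOXK2, the markers past 2-fold and 2 more by level, for each wider list its genes past 2-fold, filled up to 2 genes with the largest other differences above the limit, and the 3 genes nearest to ALDH1A3 in difference; chromosomal neighbours were outside this rule, and others are marked as named after their values were seen. Alternatives were other array scalings (loess span 0.3), a running median over 51 genes, the brightest transcript cluster, other level limits and fold limits of 1.5 and 3. Python 3.11.15, numpy 2.4.6, pandas 2.3.3, statsmodels 0.14.6 and matplotlib 3.10.9 were used, and the calculations were tested on simulated data.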

Additional observations from a re-analysis of the deposited data

How the results depend on the processing

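No paired analysis was possible because each group has 1 array, and for the same reason no array could be left out. An alternative difference or median was taken as moved when it differed by more than 0.094, the median disagreement between transcript clusters of 1 gene. A count was taken as moved when the larger of it and the count at the main settings exceeded 1.5 times the smaller. After subtraction of the running median of neighbours the differences were -2.93 for ALDH1A3, -0.098 for ALDH1A1 and -0.55 for RDH10. For ALDH1A2 and RARB, both below the level limit, they were 0.49 and -0.35. The medians subtracted from these dim genes, -0.38 and 0.20, came from genes above the limit. The median of the set was then -0.15. Without a level limit that median was also -0.15, since the 4 dim genes then enter. At a fold limit of 1.5, 2 genes of the set were lower (ALDH1A3 and RDH10), and 4 genes of the wider lists were higher and 6 lower. The other 82 values of the set, of the wider lists' counts and of FOXK2 and the 10 of RBP5 and ALDH8A1 stayed within these limits. No called difference changed sign under the alternatives run. ALDH1A3, RBP5 and ALDH8A1 passed the fold limit in each of them. Some of the differences could not move past 0.094. Each gene of the set, FOXK2, RBP5 and ALDH8A1 had 1 transcript cluster, so taking the brightest returned the deposited value. Centring changed every difference by the same amount, which was below 0.094.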
